A study of Oryctolagus cuniculus with 8 samples.

Results

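The comparison set the retinas of rabbits fed a high-sucrose diet (HSD) directly against those of rabbits fed a high-fat diet (HFD), without reference to normal chow. Its members were the 4 of the 8 sequenced retinas whose labels name either diet, 2 HSD and 2 HFD. The question it addresses is how the retina of an animal given sugar alone differs from that of an animal given fat and cholesterol alone. All animals were wild-type male Chinchilla rabbits that were 12 to 16 weeks old when housed, and their retinas were taken after 6 months of feeding. HFD was standard chow with 10% lard and 0.5% cholesterol, and HSD was standard chow with 40% sucrose. The other 4 retinas came from animals on normal chow (ND) or on the combined diet (HFSD), and their values are given only where they bear on a gene. The labels do not say whether the 2 retinas of a diet came from separate animals, so that p-values measure only the spread between these samples, which may be technical. RNA came from dissected retinas, and fewer cells of a type cannot be told apart from less RNA per cell.

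The retina holds rods and cones, which capture light, the bipolar, horizontal and amacrine interneurons, and the ganglion cells whose axons form the optic nerve. Müller glia span its full depth. In the rabbit, astrocytes, blood vessels and myelinated axons are largely restricted to a band, the medullary rays, that runs to either side of the optic nerve head. The retina is also patterned from dorsal to ventral. Transcription factors of the T-box family, ephrin-B ligands and the retinaldehyde dehydrogenase ALDH1A1 mark the dorsal side, whereas ALDH1A3, the transcription factor VAX2 and the EphB receptors mark the ventral side.

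The values were FPKM, the fragments on a gene scaled to its length and to the depth of the library. The depth behind them was 19970643 and 18248202 fragments in HFD and 15764577 and 17249551 in HSD, at which 1 fragment on a gene of 1000 bases was worth 0.0501 to 0.0634 FPKM. The libraries had the content of retina, with the rod arrestin SAG at 3820 and 3528 FPKM in HFD and at 3167 and 3244 FPKM in HSD, and with the amacrine and horizontal cell factor TFAP2A at 22.6 to 30.4 FPKM. One library carried muscle RNA, HSD replicate 2, and the genes concerned are described apart. Another, HFD replicate 2, stood apart in its immediate early genes.

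Of the 11914 protein-coding genes that reached 1 FPKM in 2 or more of the 4 libraries, 23 differed between HSD and HFD at an adjusted p under 0.05 (limma on log2(FPKM + 1), Benjamini-Hochberg), which is 0.193% of those tested. All 23 were lower in HSD and 0 were higher, and 16 carried a symbol. These 16 comprised 4 myelin genes, 3 astrocyte genes, 3 dorsal patterning genes, 2 S100 proteins, the peptide gene HCRT, the matrix gene PRELP, and PXYLP1 and SRGN, which both bear on proteoglycans. Their mean levels in HFD exceeded those in HSD by 4.25- to 369-fold. At an unadjusted p under 0.05, 668 genes were higher (5.61%) and 715 lower (6%), and the median difference over all tested genes was -0.01 on the log2 scale. Called genes thus lay on one side of an otherwise balanced distribution.

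The counts depended on the fit. With all 8 libraries sharing an estimate of the spread, 5 of the 23 passed (SRGN, PRELP, S100A13, PXYLP1 and S100A1), and with no filter on low values 0 passed, although 1601 genes then had an unadjusted p under 0.05. Without HFD replicate 2, 9 of the 23 passed, without HFD replicate 1, 13 passed, and with HSD replicate 1 or HSD replicate 2 left out all 23 passed, each of these fits having 1 residual degree of freedom. These fits also called genes on the higher side, 59 without HSD replicate 1, 36 without HSD replicate 2, 7 without HFD replicate 1 and 1 without HFD replicate 2.

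**Figure D1:**
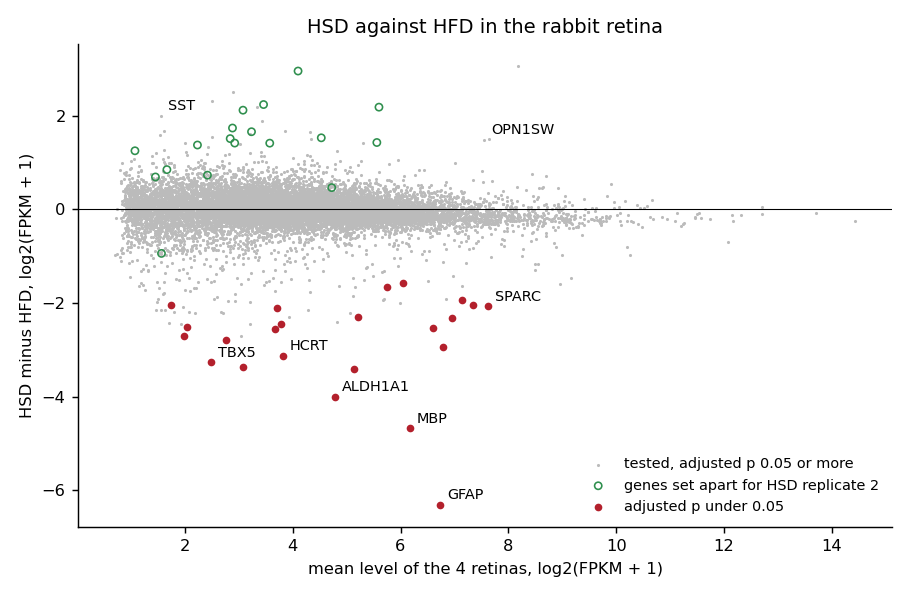
Difference between HSD and HFD (vertical axis, log2(FPKM + 1)) against the mean level of the 4 retinas (horizontal axis, log2(FPKM + 1)) for the 11914 genes tested. The 23 genes with an adjusted p under 0.05 (red) all lie below 0, and the genes set apart for HSD replicate 2 (green rings), most of them muscle genes, mostly lie above it.

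GFAP, the intermediate filament of astrocytes and of reactive Müller glia, showed the largest difference of any gene tested on the log2(FPKM + 1) scale. It was at 216 and 203 FPKM in HFD and at 2.37 and 1.08 FPKM in HSD, which is a 122-fold difference between means. As a ratio of means, TBX5 (369-fold) and MAG (134-fold) lay further apart. The difference on the log2 scale was -6.31 ± 0.24 (s.e.; limma adjusted p = 0.0051). The diets did not overlap. The HFD retinas lay close together, whereas the HSD retinas were 2.19-fold apart at their low level. On normal chow, however, the retinas were at 524 and 12.1 FPKM, so that the ND pair spanned most of the gap between HFD and HSD.

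Other astrocyte genes were lower in HSD with GFAP. GJA1, which encodes the gap junction protein connexin 43, was at 11.7 and 10.1 FPKM in HFD and at 0.442 and 1.06 FPKM in HSD (log2 difference -2.78 ± 0.23, limma adjusted p = 0.026). SPARC, a secreted matricellular protein, was at 331 and 301 FPKM in HFD and at 78.4 and 70.3 FPKM in HSD (-2.07 ± 0.14, limma adjusted p = 0.0146). Both genes separated the diets without overlap. Its relative SPARCL1 was at 98.6 and 101 FPKM in HFD and at 19.1 and 30.7 FPKM in HSD but missed the threshold (limma adjusted p = 0.072). Of the 27 astrocyte and gliosis genes tested, 3 passed. The diets did not overlap for 45.7% of all tested genes, with HSD lower for 23.5%, and HSD was lower without overlap for 19 of the 27. The list's median difference was -0.58. Other members of the list differed less or in the other direction. The water channel AQP4 was 1.77-fold and the adhesion protein HEPACAM 2.53-fold lower in HSD by the ratio of means, whereas the glutamate transporter SLC1A2 was 2.07-fold higher, and the diets did not overlap for any of these genes. VIM, an intermediate filament shared with Müller glia, was at 905 and 872 FPKM in HFD and at 840 and 697 FPKM in HSD, and the related transporter SLC1A3 was at 184 and 203 FPKM against 191 and 187 FPKM.

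The myelin genes gave the lowest median of any cell type list with more than 1 member tested, -1.29 over 28 genes. Of the 28, 25 were lower in both HSD retinas, against 23.5% of all tested genes. MBP, a structural protein of compact myelin, was at 172 and 104 FPKM in HFD and at 4.34 and 4.16 FPKM in HSD (log2 difference -4.68 ± 0.25, limma adjusted p = 0.0146), which is a 32.4-fold difference. Both HSD retinas lay far below both HFD retinas.

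MAG, an adhesion protein of the inner myelin membrane, was at 5.99 and 5.65 FPKM in HFD and at 0.0307 and 0.0561 FPKM in HSD (-2.71 ± 0.19, limma adjusted p = 0.0146). Only 3 fragments lay on MAG in the 2 HSD libraries together, against 460 in HFD, a 132-fold ratio with a 95% counting interval of 45.0 to 645. PLLP, which encodes plasmolipin, was at 7.06 and 4.90 FPKM in HFD and at 0.143 and 0.261 FPKM in HSD (-2.52 ± 0.23, limma adjusted p = 0.0338). MAG and PLLP were thus close to absent from both HSD retinas. MOBP had 732 fragments in HFD and 0 in HSD, so that its level was at least 99.5-fold higher in HFD at a floor of 3 fragments per library, but it did not pass (limma adjusted p = 0.063). Transcription factors of the oligodendrocyte lineage had the same direction without passing. SOX10 was at 2.34 and 2.12 FPKM in HFD and at 0.278 and 0.334 FPKM in HSD (limma adjusted p = 0.154), and MYRF was at 2.19 and 1.24 FPKM against 0.220 and 0.201 FPKM. NFASC, which is also made by neurons, was the exception, at 15.8 and 17.0 FPKM in HFD and 19.2 and 20.9 FPKM in HSD.

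These glial genes also varied within diets outside the comparison. Of the 23 called genes, 5 were over 10-fold apart between the 2 ND retinas and 5 between the 2 HFSD retinas, whereas 0 were so within HFD or within HSD. In ND, MBP was at 252 and 6.55 FPKM, MAG at 10.7 and 0.137 FPKM and PLLP at 11.7 and 0.222 FPKM. Both HSD retinas lay below both ND retinas for 20 of the 23 genes. These genes were called for low HSD values, so this count is no separate support. The part of the variation within diets in the difference between HSD and HFD was not tested.

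**Figure D2:**
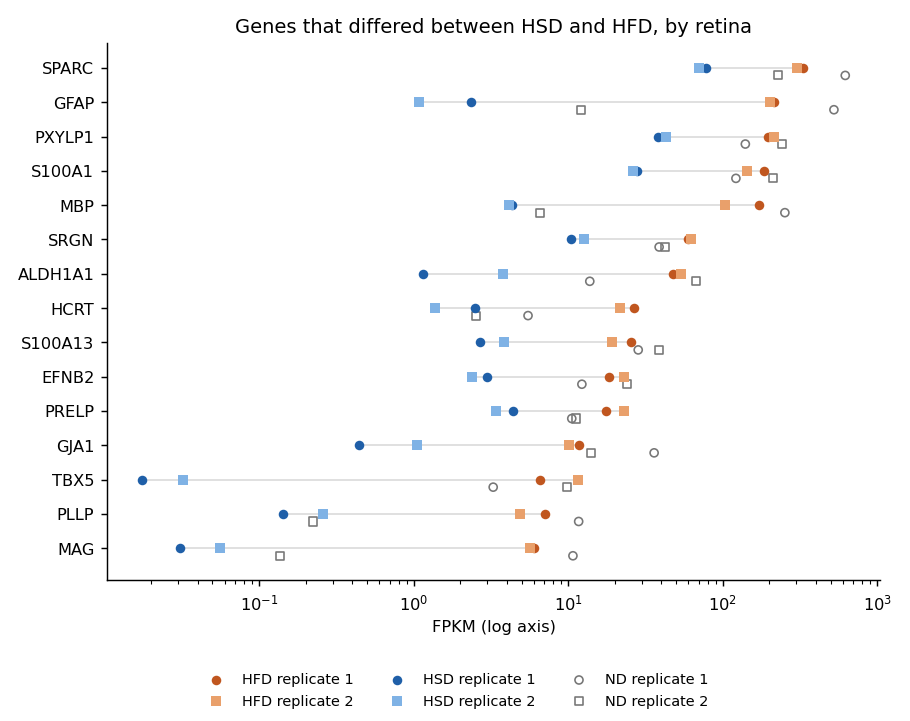
FPKM (log axis) of 15 called genes with a symbol in each HFD retina (orange), HSD retina (blue) and ND retina (open grey). HFD and HSD do not overlap for any of the 15, while the ND retinas of GFAP (524 and 12.1 FPKM) and MBP (252 and 6.55 FPKM) lie far apart.

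Dorsal patterning genes formed the other main group. TBX5, a T-box factor expressed on the dorsal side of the eye, was at 6.61 and 11.7 FPKM in HFD and at 0.0175 and 0.0320 FPKM in HSD (log2 difference -3.26 ± 0.28, limma adjusted p = 0.029). In fragments this was 1249 in HFD against 3 in HSD, a 360-fold ratio with a 95% counting interval of 123 to 1746. ALDH1A1, which makes retinoic acid, was at 47.8 and 53.4 FPKM in HFD and at 1.16 and 3.79 FPKM in HSD (-4.00 ± 0.37, limma adjusted p = 0.0337). The 2 HSD retinas thus held little transcript of either gene.

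EFNB2, the ligand ephrin-B2, was at 18.4 and 23.1 FPKM in HFD and at 2.98 and 2.40 FPKM in HSD (-2.55 ± 0.18, limma adjusted p = 0.0146). NR2F2, a nuclear receptor, lay just outside the threshold at 12.1 and 17.3 FPKM in HFD and 1.39 and 2.34 FPKM in HSD (limma adjusted p = 0.0503). TBX3, another T-box factor, was at 7.47 and 12.99 FPKM in HFD and at 4.62 and 4.62 FPKM in HSD (limma adjusted p = 0.33). The size of the difference therefore varied widely among dorsal genes. TBX2 was at 53.1 and 63.4 FPKM in HFD and 44.6 and 46.7 FPKM in HSD. Of the 10 dorsal genes tested, 3 passed (0.193% of all tested genes did) and 8 were lower in both HSD retinas (23.5% of all were). The median was -0.73. The exception was CYP1B1, a cytochrome P450 that also oxidises retinoids, at 0.760 and 1.502 FPKM in HFD and 8.26 and 1.63 FPKM in HSD.

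Of the 9 ventral genes tested, 0 passed, 4 were higher in both HSD retinas (22.2% of all tested genes were) and 3 were lower, with a median of 0.15. ALDH1A3, the ventral counterpart of ALDH1A1, was at 5.06 and 2.34 FPKM in HFD and at 11.9 and 13.9 FPKM in HSD, with a log2 difference of 1.62 ± 0.30 (limma adjusted p = 0.208). EPHB2, a receptor for ephrin-B ligands, was at 5.91 and 6.89 FPKM in HFD and at 10.8 and 9.74 FPKM in HSD (limma adjusted p = 0.302). VAX2 was at 32.3 and 37.9 FPKM in HFD and at 43.3 and 42.8 FPKM in HSD. The fourth gene of the list on that side was OPN1SW, which is described with the cone genes. These genes separated the diets in the direction opposite to the dorsal genes, but by amounts that did not pass the test. CRYM, SMOC1 and EPHB3 ran the other way. CRYM was at 57.2 and 98.9 FPKM in HFD and 9.05 and 39.1 FPKM in HSD, and EPHB3, an EphB receptor like EPHB2, was at 1.78 and 1.74 FPKM in HFD and 0.687 and 1.21 FPKM in HSD. EphB receptors therefore lay on both sides. The region of the retina from which RNA was taken is not given, and its part in any difference was not tested.

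Cone genes lay on the higher side in HSD as a list. Of 15 tested, 11 were higher in both HSD retinas (22.2% of all tested genes were). An unadjusted p under 0.05 was reached by 7, all higher in HSD, against 5.61% of all genes. Of the 15, 0 passed, and the median was 0.54 (0.31 without HFD replicate 2). OPN1SW, the short-wavelength opsin, which is concentrated in the ventral retina of many mammals, was at 114 and 80.9 FPKM in HFD and at 255 and 290 FPKM in HSD, a 2.79-fold difference (log2 1.49 ± 0.20, limma adjusted p = 0.12). PDE6C, the catalytic subunit of the cone phosphodiesterase, was at 24.8 and 23.6 FPKM in HFD and at 44.4 and 50.9 FPKM in HSD (0.94 ± 0.13, limma adjusted p = 0.128). The diets did not overlap for either gene.

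CNGA3, a subunit of the cone channel, was at 5.88 and 4.05 FPKM in HFD and at 11.1 and 10.2 FPKM in HSD, and GNAT2, the cone transducin, was at 73.0 and 50.5 FPKM against 107 and 112 FPKM. The cone arrestin ARR3 was at 381 and 293 FPKM in HFD and 450 and 476 FPKM in HSD. RXRG, a retinoid receptor of cones, overlapped between the diets at 10.5 and 6.78 FPKM in HFD and 7.28 and 10.2 FPKM in HSD. KCNV2, a channel subunit of rods and cones, was the exception in direction, at 144 and 165 FPKM in HFD and 118 and 131 FPKM in HSD. Rod genes lay on both sides. Of 21 tested, 7 were higher and 8 lower in both HSD retinas, against 22.2% and 23.5% of all tested genes. The rod median was -0.09. The medians of the bipolar (0.03), amacrine (0.12), horizontal (0.16) and ganglion cell (-0.05) lists also lay near that of all genes.

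Among peptide transmitters, HCRT was called, lower in HSD than in HFD, and others lay on both sides without passing. HCRT, the precursor of the hypocretin (orexin) peptides, was at 26.8 and 21.7 FPKM in HFD and at 2.50 and 1.37 FPKM in HSD (log2 difference -3.13 ± 0.24, limma adjusted p = 0.0177). The 4 retinas outside the comparison were at 1.15 to 7.65 FPKM, nearer to HSD than to HFD. VIP, the vasoactive intestinal peptide of an amacrine cell class, was at 5.36 and 6.73 FPKM in HFD and at 1.36 and 1.06 FPKM in HSD (limma adjusted p = 0.082). SST, somatostatin, went the other way, at 0.2005 and 0.132 FPKM in HFD and 3.05 and 4.36 FPKM in HSD (log2 1.999 ± 0.23, limma adjusted p = 0.075). It had the smallest adjusted p of the genes that were higher in HSD. Of the 15 neuropeptide genes tested, 4 were higher and 5 lower in both HSD retinas, near the 22.2% and 23.5% of all tested genes.

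**Figure D3:**
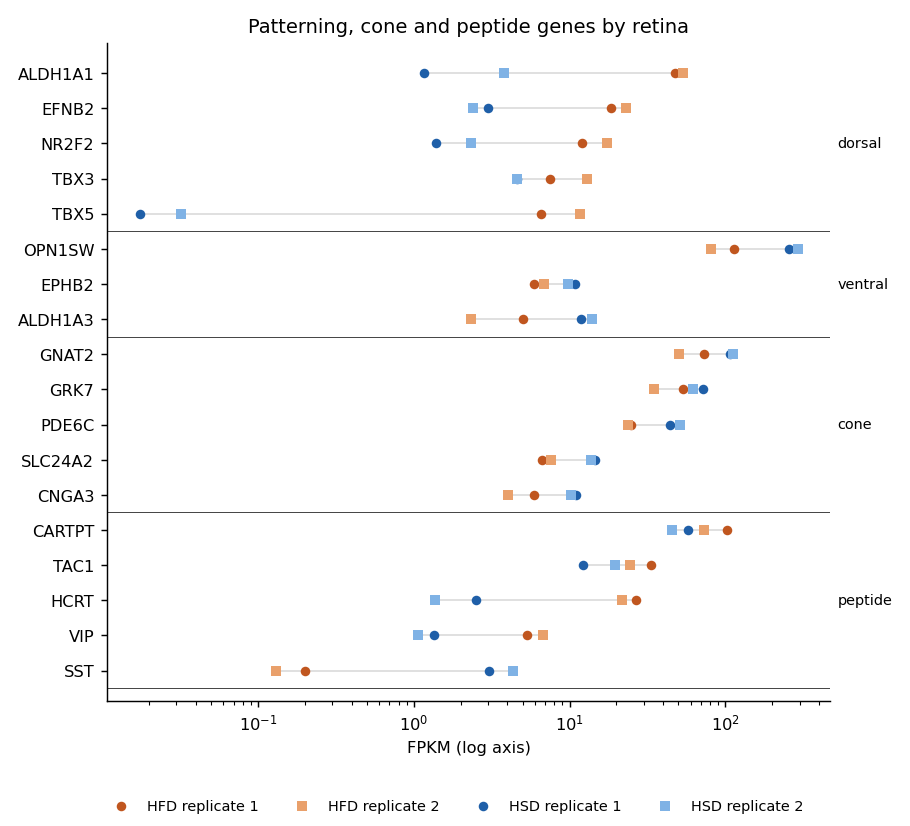
FPKM (log axis) of dorsal, ventral, cone and peptide genes in the HFD (orange) and HSD (blue) retinas. The dorsal genes shown are lower and the ventral and cone genes shown higher in both HSD retinas. List members that went the other way are not shown, namely CYP1B1 (dorsal), CRYM, SMOC1 and EPHB3 (ventral) and KCNV2 (cone). Among the peptides SST is higher and HCRT and VIP are lower.

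The remaining called genes with a symbol comprised S100A1, S100A13, SRGN, PXYLP1 and PRELP. S100A1, a calcium sensor of the S100 family, was at 184 and 144 FPKM in HFD and at 27.9 and 26.3 FPKM in HSD (log2 difference -2.54 ± 0.16, limma adjusted p = 0.0146). S100A13, which takes part in the release of proteins that lack a signal peptide, was at 25.5 and 19.2 FPKM in HFD and at 2.70 and 3.84 FPKM in HSD (-2.45 ± 0.21, limma adjusted p = 0.029). The other 5 S100 genes tested did not separate the diets.

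SRGN, the proteoglycan serglycin, was at 59.3 and 62.4 FPKM in HFD and at 10.5 and 12.6 FPKM in HSD (-2.31 ± 0.14, limma adjusted p = 0.0146). PXYLP1, a phosphatase that acts on the linker of glycosaminoglycan chains, was at 196 and 214 FPKM in HFD and at 38.1 and 43.0 FPKM in HSD (-2.31 ± 0.14, limma adjusted p = 0.0146). PRELP, a leucine-rich matrix proteoglycan, was at 17.6 and 22.8 FPKM in HFD and at 4.43 and 3.43 FPKM in HSD (-2.10 ± 0.19, limma adjusted p = 0.0337). For these 5 genes the retinas of a diet lay close together, and unlike the myelin genes they also lay within 2-fold of each other in ND, where SRGN was at 38.8 and 42.3 FPKM and PXYLP1 at 140 and 240 FPKM. Another 7 called genes carried no symbol, with HFD means 3.05- to 31.1-fold above those in HSD.

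Müller glia, vessel and microglia lists lay on the lower side in HSD, with 0 genes called in each. The Müller glia list had a median of -0.24 over 22 genes. In both HSD retinas 12 were lower and 2 higher (23.5% and 22.2% of all tested genes were). GLUL, the glutamine synthetase of Müller glia, was at 1685 and 1551 FPKM in HFD and at 754 and 883 FPKM in HSD (limma adjusted p = 0.251). RLBP1, their retinaldehyde-binding protein, was at 229 and 186 FPKM in HFD and at 102 and 131 FPKM in HSD (limma adjusted p = 0.259). The rod list in the same libraries had a median of -0.09.

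The endothelial list had a median of -0.58 over 21 genes (-0.19 without HFD replicate 1). In both HSD retinas 9 were lower and 4 higher (23.5% and 22.2% of all tested genes were). CLDN5, the tight junction protein of the blood-retina barrier, was at 20.3 and 6.76 FPKM in HFD and at 1.16 and 0.794 FPKM in HSD (limma adjusted p = 0.187), while the ND retinas were at 28.01 and 1.03 FPKM. SLCO1C1, a thyroid hormone carrier of barrier endothelium, was at 13.9 and 9.02 FPKM in HFD and at 2.73 and 3.33 FPKM in HSD (limma adjusted p = 0.141). The mural cell list had a median of -0.61 over 7 genes, and its marker RGS5 was at 3.58 and 3.38 FPKM in HFD and at 0 and 1.32 FPKM in HSD, and at 8.97 and 0.184 FPKM in ND. As with the glial genes, the ND pair thus spanned most or all of the gap between HFD and HSD for CLDN5 and RGS5. APLN, the ligand apelin, was at 3.64 and 5.39 FPKM in HFD and at 1.08 and 0.743 FPKM in HSD. Blood differed between libraries irrespective of diet, as the globin gene HBB2 was at 71.7 and 14.9 FPKM in HFD and at 0.229 and 42.1 FPKM in HSD. Its part in the vessel values was not tested.

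The microglia list had a median of -0.66 over 17 genes. In both HSD retinas 13 were lower and 1 higher (23.5% and 22.2% of all tested genes were). CD74, the invariant chain of class II antigen presentation, was at 7.05 and 9.86 FPKM in HFD and at 1.55 and 1.58 FPKM in HSD (log2 difference -1.86 ± 0.21, limma adjusted p = 0.063). LCP1, an actin-bundling protein of leukocytes, was at 7.91 and 8.21 FPKM in HFD and at 4.29 and 4.28 FPKM in HSD. Of 10 complement genes tested, 6 were lower in both HSD retinas and the median was -0.54. SERPING1, the inhibitor of the C1 complex, was at 2.61 and 2.64 FPKM in HFD and at 0.818 and 1.27 FPKM in HSD (limma adjusted p = 0.298). The 13 cytokine, chemokine and adhesion genes tested had a median of -0.09, with 3 higher and 3 lower.

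**Figure D4:**
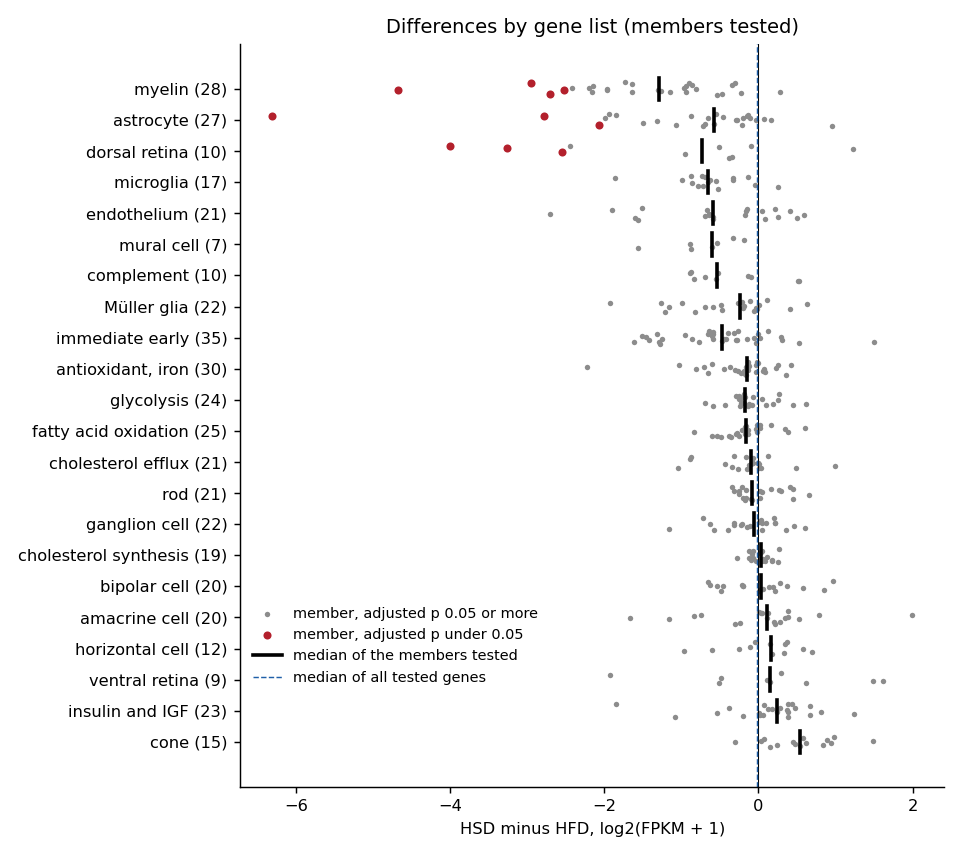
Difference between HSD and HFD (horizontal axis, log2(FPKM + 1)) of each tested member of 22 gene lists, with the number tested in brackets and the median as a black bar. Red points mark members with an adjusted p under 0.05, which occur in the myelin, astrocyte and dorsal lists, and the blue dashed line marks the median of all tested genes (-0.01).

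Lists of tissues that adjoin the retina had medians below that of all genes, other than the lens list. The pigment epithelium list had a median of -0.05 over 11 genes and its isomerase RPE65 was at 34.8 and 10.1 FPKM in HFD and at 18.9 and 13.7 FPKM in HSD. The melanin list had a median of -0.49 over 9 genes, of which 6 were lower and 0 higher in both HSD retinas, and the pigment enzyme TYRP1 was at 3.71 and 4.52 FPKM in HFD and at 3.51 and 3.13 FPKM in HSD. Only 3 lens genes were tested, with 2 higher and 1 lower in both HSD retinas. The 10 ciliary body, iris and vitreous genes had a median of -0.55, with 6 lower and 1 higher in both HSD retinas, among them PRSS56, a serine protease, at 30.4 and 29.0 FPKM in HFD and 11.1 and 2.99 FPKM in HSD (limma adjusted p = 0.259). Of the 14 fibroblast and connective tissue genes tested, 7 were lower and 3 higher in both HSD retinas, the median was -0.36, PRELP passed, and SFRP2, a secreted Wnt modulator, was at 779 and 689 FPKM in HFD and at 325 and 181 FPKM in HSD (limma adjusted p = 0.208). Over all tested genes, 23.5% were lower and 22.2% higher in both HSD retinas. The part of these adjoining tissues in the differences was not tested.

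No gene on the lists that handle the nutrients themselves passed the test. Of 19 genes of cholesterol synthesis and uptake, 0 had an unadjusted p under 0.05, 2 were higher and 1 was lower in both HSD retinas, and the median was 0.04. HMGCS1, the synthase early in the pathway, was at 37.6 and 41.1 FPKM in HFD and at 47.1 and 46.8 FPKM in HSD, a log2 difference of 0.25 ± 0.12. INSIG1, a brake on the same pathway, was at 35.0 and 38.2 FPKM against 31.4 and 28.7 FPKM. These are among the 3 genes of the list that separated the diets, whereas the other 16 overlapped. NPC2, which carries cholesterol out of the lysosome, was at 97.1 and 72.7 FPKM in HFD and at 38.4 and 42.2 FPKM in HSD (log2 difference -1.04 ± 0.18, limma adjusted p = 0.174). The 21 efflux and lipid droplet genes had a median of -0.09.

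Fatty acid genes gave medians of 0.05 for synthesis and elongation (17 tested) and -0.16 for oxidation (25 tested), with 0 called in either. FADS2, a desaturase of polyunsaturated fatty acids, was at 28.6 and 35.1 FPKM in HFD and at 20.4 and 21.3 FPKM in HSD (limma adjusted p = 0.302). THRSP, a lipogenic gene that carbohydrate induces in liver, was at 0.995 and 0.363 FPKM in HFD and at 3.36 and 2.30 FPKM in HSD (limma adjusted p = 0.261). Both separated the diets, with THRSP higher and FADS2 lower in HSD, but neither passed.

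Of 18 genes of sugar transport and of the fructose and polyol pathways, 0 passed. In both HSD retinas 5 were higher and 4 lower, near the 22.2% and 23.5% of all tested genes. SLC2A1, the glucose transporter of the blood-retina barrier and of retinal cells, was at 289 and 303 FPKM in HFD and at 206 and 169 FPKM in HSD (log2 difference -0.66 ± 0.16, limma adjusted p = 0.284). KHK, which phosphorylates fructose, was at 34.4 and 29.7 FPKM in HFD and at 23.1 and 26.0 FPKM in HSD. GFPT1, which diverts glucose into hexosamines, was at 8.21 and 7.47 FPKM in HFD and at 11.9 and 11.5 FPKM in HSD (limma adjusted p = 0.323). Glycolysis had a median of -0.18 over 24 genes (-0.02 without HFD replicate 1), and its lactate carrier SLC16A1 was at 209 and 227 FPKM in HFD and at 140 and 150 FPKM in HSD (limma adjusted p = 0.266).

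The insulin and IGF list lay on the higher side in HSD, with 12 of 23 genes higher in both HSD retinas (against 22.2% of all tested genes), 3 lower (against 23.5%) and a median of 0.25, but 0 passed. IGF1, the growth factor, was at 7.04 and 6.62 FPKM in HFD and at 12.1 and 13.3 FPKM in HSD (log2 difference 0.81 ± 0.14, limma adjusted p = 0.202). IGFBP5, a binding protein of the IGFs, was at 39.9 and 66.7 FPKM in HFD and at 18.3 and 10.2 FPKM in HSD (-1.84 ± 0.34, limma adjusted p = 0.208). Ligand and binding protein thus lay on opposite sides.

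Antioxidant and iron genes had a median of -0.15 over 30 genes. In both HSD retinas 16 were lower and 3 higher (23.5% and 22.2% of all tested genes were). SELENOP, the selenium carrier, was at 263 and 287 FPKM in HFD and at 140 and 129 FPKM in HSD (log2 difference -1.03 ± 0.14, limma adjusted p = 0.12). SOD3, the extracellular superoxide dismutase, was at 12.6 and 6.56 FPKM in HFD and at 0.345 and 2.52 FPKM in HSD. CRYAB, a small heat shock protein, was at 291 and 317 FPKM in HFD and at 178 and 175 FPKM in HSD (limma adjusted p = 0.208). The 13 mitochondrially encoded genes did not separate the diets in any case.

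Immediate early genes, which neurons and glia switch on within minutes of a stimulus or of handling, were uneven between the retinas of a diet. Their summed level was 596 FPKM in HFD replicate 1, 1701 FPKM in HFD replicate 2, 1034 FPKM in HSD replicate 1 and 748 FPKM in HSD replicate 2. FOS was at 10.0 and 222 FPKM in HFD and at 90.9 and 54.2 FPKM in HSD. BTG2 was at 3.24 and 153 FPKM in HFD and at 5.96 and 12.1 FPKM in HSD. Of the 35 tested, 0 passed, and in both HSD retinas 13 were lower and 2 higher (23.5% and 22.2% of all tested genes were). The median was -0.47, or -0.11 without HFD replicate 2, and 22 were highest in that library. ID1 and ID3, targets of BMP signalling, were also highest there, at 84.7 and 181 FPKM for ID1 in HFD against 25.3 and 70.6 FPKM in HSD. BAMBI, a decoy receptor of the same pathway, was more even, at 23.8 and 31.8 FPKM in HFD and 12.9 and 11.7 FPKM in HSD (limma adjusted p = 0.156).

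On the higher side, 12 genes had the largest differences among those with a symbol, a mean of at least 5 FPKM in HSD, no overlap between the diets and an unadjusted p under 0.01, the genes set apart for HSD replicate 2 left out. All 12 missed the threshold (limma adjusted p = 0.12 to 0.313), and SST, with a lower level, lay outside this choice. They included ALDH1A3 and OPN1SW. GNG4, a G-protein gamma subunit, was at 20.5 and 16.1 FPKM in HFD and at 43.4 and 34.0 FPKM in HSD (log2 difference 1.04 ± 0.19). The diets did not overlap. FLRT2, an adhesion protein that guides axons, was at 7.80 and 4.26 FPKM in HFD and at 15.9 and 12.2 FPKM in HSD (1.13 ± 0.28). MRPL17, a protein of the mitochondrial ribosome, was at 9.78 and 8.65 FPKM in HFD and at 18.4 and 23.7 FPKM in HSD (1.10 ± 0.17). Others were SLC35D1, CEP192, FMN1, ELK4, VSTM2A and XKR7, with log2 differences of 0.997 to 1.23.

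A rule of fold alone, which counts a gene when (FPKM + 1) differs over 1.5-fold between the diet means and makes no use of replicates, took in 491 genes higher in HSD (2.54% of the 19293 protein-coding genes) and 567 lower (2.94%). Of these, 115 and 242 stayed past it whichever of the 4 retinas was dropped. The same limit separated 1413 genes between the 2 HFD retinas and 1009 between the 2 HSD retinas. Single retinas of the same diet thus passed this limit about as often as the diet means did. Each diet mean averages 2 retinas and so varies less, which makes these counts unlike. Among the genes on the higher side were 74 of 78 set apart for HSD replicate 2, namely the 48 entries of the muscle list and 30 other genes found to be high in that library.

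Skeletal muscle genes were higher in HSD replicate 2 than in the other 3 retinas. Of 48 entries of the muscle list, 47 were highest in HSD replicate 2, and 45 reached 1 FPKM there, against 12 in HSD replicate 1, 11 in HFD replicate 1 and 13 in HFD replicate 2. The summed level was 1121 FPKM in HSD replicate 2, which is 0.209% of its protein-coding FPKM, and 66.7 to 73.9 FPKM in the other 3. Some entries of the list were present in all 4 retinas, such as the tropomyosin gene TPM1 at 18.6 to 22.8 FPKM in the other 3 and 39.1 FPKM in HSD replicate 2. Others were near 0 outside that library. MYL1, a fast myosin light chain, was at 0 and 0.126 FPKM in HFD and at 0 and 141 FPKM in HSD. ACTA1, the skeletal actin, was at 0.707 and 0.483 FPKM in HFD and at 0.224 and 105 FPKM in HSD. TNNC2, the fast troponin C, was at 0 FPKM in 3 retinas and at 77.8 FPKM in HSD replicate 2. CKM, the muscle creatine kinase, was likewise at 57.1 FPKM in that library and at 0 to 0.178 FPKM in the others.

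In all, 60 protein-coding genes that reached 1 FPKM in HSD replicate 2 were at least 10-fold above the other 3 retinas there, with 0.1 FPKM added to each value. Of these 60, 30 belonged to the muscle list, 8 were high enough to be tested and 0 were called. The rule itself sets the 2 HSD retinas far apart, so that a call was hardly possible. The extraocular myosin gene MYH13, which marks the muscles that move the eye, was at 1.68 FPKM in HSD replicate 2 and at 0 to 0.0454 FPKM in the others. Of the fibroblast and connective tissue genes, 5 of 14 tested were highest there, while the summed level of that list was lowest there (345 FPKM against 432 to 941 FPKM). DCN was at 0.453 and 0.310 FPKM in HFD and at 1.77 and 16.2 FPKM in HSD, and COL3A1 was at 2.21 FPKM in HSD replicate 2 against 0 to 0.124 FPKM. Some genes of the list departed from this pattern. MYOM3, a protein of the sarcomeric M band, was at 0.239 and 0.251 FPKM in HFD and at 1.95 and 1.98 FPKM in HSD, equally in both HSD retinas (log2 difference 1.25 ± 0.21, limma adjusted p = 0.173). MYOD1, the myogenic factor, was highest in HFD, at 3.34 and 2.42 FPKM against 1.43 and 0.654 FPKM. With the 78 genes set apart left out of the fit, 24 genes were called, 23 of them those called before. The 23 were not among the 78, so their return was largely fixed.

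**Figure D5:**
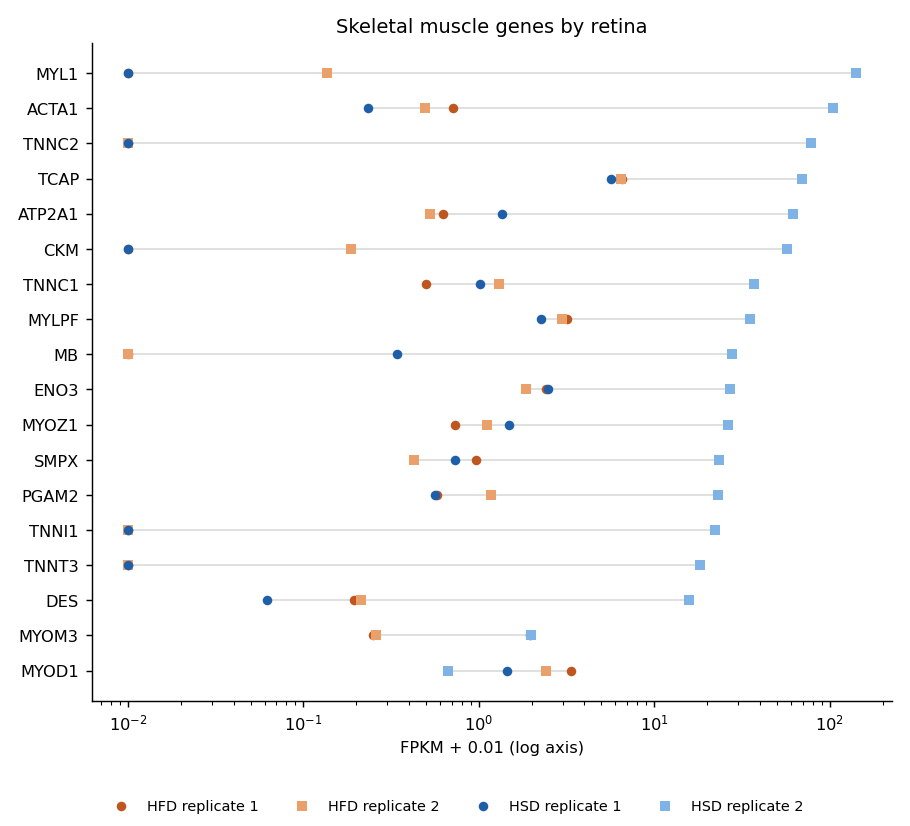
FPKM + 0.01 (log axis) of the 16 most abundant genes of the muscle list that were at least 10-fold above the other retinas in HSD replicate 2, followed by MYOM3 and MYOD1, in the HFD (orange) and HSD (blue) retinas. HSD replicate 2 stands apart for the 16 genes, whereas both HSD retinas are alike for MYOM3.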

How the data were processed

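RNA of 4 dissected rabbit retinas, 2 HFD and 2 HSD, was compared. Per the labels and the methods of the study, TruSeq libraries were read on a HiSeq sequencer, reads were checked with FastQC, trimmed at the 5′ end and mapped with TopHat2, reads with several locations were discarded, and the authors derived FPKM per gene in R. The genome build and annotation are not given in the sources used here, so no coordinates or sequences are printed. The deposited FPKM were used as they stand, with 0 value columns left without a sample. Fragments were recovered with the shortest gene length at which every value of a gene was whole to within 0.001 of a fragment. This held for 100% of nonzero values, a share that the choice of a length per gene largely fixes, and fragments can be understated for genes seen in few libraries. The recovered fragments served for counting intervals (exact binomial, 95%, counting error only), for floors (3 fragments per library) and for an alternative fit by voom.

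Groups follow the labels. Genes that code for protein and reached 1 FPKM in 2 or more of the 4 libraries were tested on those libraries alone, as log2(FPKM + 1), by limma (version 3.58.1, R 4.3.3) with its trended prior variance. Adjusted p are Benjamini-Hochberg values over all 11914 genes. Because of the added 1, log2 differences understate those of low genes. Errors are standard errors. Lists are described by counts and medians with no test of the list. Over all tested genes, 22.2% were higher and 23.5% lower in both HSD retinas, the shares beside which each count stands. Named were all called genes with a symbol, 12 genes with the largest differences on the higher side (groups apart, unadjusted p under 0.01, mean of at least 5 FPKM), and up to 6 members per list whose diets did not overlap. VIM, SLC1A3, SLC1A2, AQP4, HEPACAM, SOX10, MYRF, NFASC, TBX2, VAX2, ARR3, RXRG, KCNV2, FOS, BTG2, MYH13, COL3A1, MYOD1, RPE65, HBB2, SAG, TFAP2A, TPM1, MYL1, ACTA1, TNNC2 and CKM were named after their values were seen. Members and lists were chosen with earlier results of these data known. Alternatives were other pseudocounts, filters, scalings, sets of libraries, a replicate block, voom, and leaving out each library. The fit was tested on simulated data. Some genes that the rule names are not reported here.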

Additional observations from a re-analysis of the deposited data

How the results depend on the processing

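Of the alternatives, pseudocounts of 0.1 and 0.5 gave 18 and 24 called genes, a filter of 5 FPKM 22, median scaling 21, voom on the recovered fragments 16 (14 shared with the 23) and the fit without the 78 genes set apart 24. All were lower in HSD. Fewer were called with all 8 libraries in the fit (5), with the 6 libraries other than ND (9), with all rows of the table (14) and with no filter on low values (0 by limma, at 1601 with an unadjusted p under 0.05). The cause was not tested. Leaving out each library in turn gave 14 to 193 called genes, with 1 residual degree of freedom and the lone retina assumed to vary like the other diet. Without HSD replicate 1 there were 59 and without HSD replicate 2 36 genes called higher. With the replicate number as a block, 25 genes were called (19 shared). The numbers did not pair the retinas in the data (correlation of replicate differences across genes 0.07, 2 pairs). The count by fold was 2871 with a pseudocount of 0.1 and 1662 with all rows of the table, and 1190 to 1814 with each library left out. No gene named by the rule changed sign under the alternatives run. This was largely fixed in advance, as diets that do not overlap keep their order whichever library is left out. The cone median was 0.31 without HFD replicate 2.

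With 2 retinas a diet and shallow coverage of low genes (1 fragment at 1000 bases is worth up to 0.0634 FPKM), differences between genes near 0 rest on few fragments. GFAP kept an adjusted p under 0.05 in 10 of 13 refits (limma, up to 0.272 with all 8 libraries), SRGN in 12 and PLLP in 5.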

Other observations

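Clock and thyroid genes were not described above as lists of their own. Some also belong to lists above, such as THRB (cone), TTR (pigment epithelium) and CRYM (ventral). Of 19 circadian clock genes tested, 0 passed and the median lay near 0, with CLOCK at 17.7 and 15.3 FPKM in HFD and 25.8 and 25.7 FPKM in HSD (log2 difference 0.61 ± 0.14, limma adjusted p = 0.259). Of 13 genes that transport or bind thyroid hormone, 0 passed and the median was -0.03, with the receptor THRB higher in both HSD retinas (27.3 and 25.3 FPKM against 18.3 and 16.2 FPKM) and the carrier TTR lower (12.4 and 9.39 FPKM against 26.9 and 19.998 FPKM).

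Of 2236 rows that are not protein-coding and passed the same filter, 1 was called in the fit of all rows. It carried no symbol and was at 14.2 and 10.3 FPKM in HFD and at 0.0971 and 0.0888 FPKM in HSD (log2 difference -3.58, limma adjusted p = 0.0254).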
